A study of Mus musculus with 18 samples.

Results

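The change between 8 and 16 weeks of age in NOR lacrimal glands (LGs) was measured across all genes. The libraries compared were those labelled with the NOR/LtJ genotype and an age of 16 or 8 weeks, 3 of each age, which makes 6 of the 18 libraries of the series. The series holds bulk mRNA sequencing of whole exorbital LGs from males of NOR/LtJ, a strain used as a model of Sjogren's syndrome, and of BALB/cJ, a strain used as the healthy control, at 3, 8 and 16 weeks, or 6 groups of 3 libraries. By the study's methods, every library of 8 or 16 weeks was a pool of glands from 2 to 3 mice of the same strain and age. Titles of the NOR libraries read NOD, while the genotype label and the study name NOR, and they were taken as NOR here. The spread between libraries is thus a spread between pools, and p-values refer to it.

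Total counts were 15510762, 14894378 and 17475740 in the NOR libraries of 8 weeks and 13638923, 17719984 and 7322307 in those of 16 weeks, with libraries named 1, 2 and 3 in that order. A count was detected for between 15410 and 16531 of the 23337 genes per library. The 20 most abundant genes took 63.4%, 62.5% and 66.7% of the counts at 8 weeks and 66.0%, 56.8% and 61.2% at 16 weeks, so that most of the counts came from a few transcripts. Levels are given as CPM, counts scaled to a library of 1e6 with edgeR's TMM factors, and a floor of 3 counts corresponded to between 0.118 and 0.319 CPM in these libraries. Genes that passed the low-count filter, 13376 in all, were put to the quasi-likelihood test of edgeR in 1 fit of the 18 libraries, with Benjamini-Hochberg adjustment. A gene is said to have risen or fallen where its adjusted p was at most 0.05, and is called a differentially expressed gene (DEG) where its absolute log2 fold change was also at least 1. For a single gene, an exact two-sided permutation test of 3 against 3 libraries cannot give a p below 0.1.

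The LG makes the watery and protein part of the tear film. Acinar cells fold, store and release its proteins under nervous control, and ducts carry them to the eye. In Sjogren's syndrome and its mouse models, lymphocytes collect in foci around ducts and vessels of the gland, and such foci can take on features of lymphoid tissue, with separate zones of B and T cells and specialized vessels.

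Between 8 and 16 weeks the glands of NOR mice gained transcripts of B and T cells, of lymphoid tissue organization and of antigen presentation. Some genes for protein folding, tear products and sterol synthesis fell, and a group of circadian clock genes shifted in opposite directions. A total of 1292 genes were DEGs (9.66% of those tested), of which 1188 rose (8.88%) and 104 fell (0.778%). Without the fold threshold, 4942 genes passed (36.9%), 2474 higher (18.5%) and 2468 lower (18.5%), and 6186 genes (46.2%) had an unadjusted p under 0.05. The directions differed in size rather than in number. The median log2 fold change was 0.96 among genes that rose and -0.43 among those that fell, with 369 of the former and 16 of the latter at or past an absolute value of 2. DEGs that rose had a median of 1.67 CPM at 8 weeks and 5.98 CPM at 16 weeks, and DEGs that fell 4.95 and 2.04 CPM. Among all genes that passed, the medians were 4.49 and 9.81 CPM for those that rose and 30.9 and 22.6 CPM for those that fell. The 3 libraries of each age did not overlap for 1116 of the DEGs that rose and 91 of those that fell. Across all genes tested, 2994 were higher in every 16-week library than in any of 8 weeks (22.4%), and 2972 were lower (22.2%).

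The even split by direction rested on the scaling. With total counts in place of TMM factors, the median log2 fold change of all genes moved from -0.01 to 0.26, and the split became 3979 higher against 644 lower genes at the adjusted p, and 1698 against 42 DEGs. The excess of rising DEGs was thus present on either scale, while many modest decreases are relative to the typical gene. Shares of all genes given beside the lists below are those of the main fit. List counts with total counts are to be set against 3979 and 644 genes, or 1698 and 42 DEGs, of 13376. Without 16-week library 2 the count of DEGs fell to 819, of which 798 were among the 1292, and without 16-week library 1 it was 1828. In bulk tissue, a change in the number of cells of a type and a change in RNA per cell cannot be told apart.

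Markers of the lacrimal acinus were abundant in all 6 libraries. Their summed level was 1169, 1219 and 1307 CPM at 8 weeks and 1250.3, 795 and 1034 CPM at 16 weeks, with Bhlha15, a transcription factor of secretory cells, the most abundant of the 6 markers. None of these 6 markers was at 0 in any library, and 16-week library 2 had the lowest sum. The gland lies near the parotid gland and muscle, and markers of these neighbours varied from pool to pool. The 5 parotid markers summed to 2943, 14494 and 2025 CPM at 8 weeks and 27.3, 3930.3 and 4.57 CPM at 16 weeks, led by Bpifa2, with Prh1 at 0 in all 6. In BALB/c they summed to 1626, 449.8 and 51.9 CPM at 8 weeks and 9.36, 6172 and 308 CPM at 16 weeks. Skeletal muscle markers summed to 101, 102 and 8.64 CPM at 8 weeks and 18.3, 11.96 and 3.08 CPM at 16 weeks, with Myh4 the most abundant of 5. Both sums were highest in 8-week libraries, at list medians of -1.24 and -2.51, but each varied many times over within an age. The parotid median was -7.47 without 16-week library 2, -0.17 without 8-week library 2 and -0.67 without 16-week library 1. Of the muscle markers, Ckm, creatine kinase, gave a log2 fold change of -2.59 ± 1.23 (edgeR quasi-likelihood, Benjamini-Hochberg adjusted p = 0.11), and in a fit of the compared groups alone 2 of the 5 fell as DEGs. The part of these tissues in other results was not tested. Adipocyte markers, 4 in number, summed to 15.2, 6.51 and 11.05 CPM at 8 weeks and 13.9, 16.3 and 9.57 CPM at 16 weeks, and erythroid markers to 19.9, 28.03 and 17.04 CPM at 8 weeks and 23.6, 10.7 and 18.3 CPM at 16 weeks, with Hba-a1 and Hba-a2 at 0 and Beta-s (Hbb-bs) the most abundant. The ranges of both ages overlapped in either sum.

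Lymphocyte markers also differed between pools of the same age. The sums of T-cell and B-cell markers were highest in library 1 among those of 8 weeks, and at 16 weeks lowest in library 1 and highest in library 2. Even so, every 16-week library lay above every 8-week library in both sums, as the plot of summed marker levels shows. An alternative with library 1 of both ages left out, chosen after these levels were seen, gave 1932 DEGs, of which 1240 were among the 1292.

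**Figure D1:**
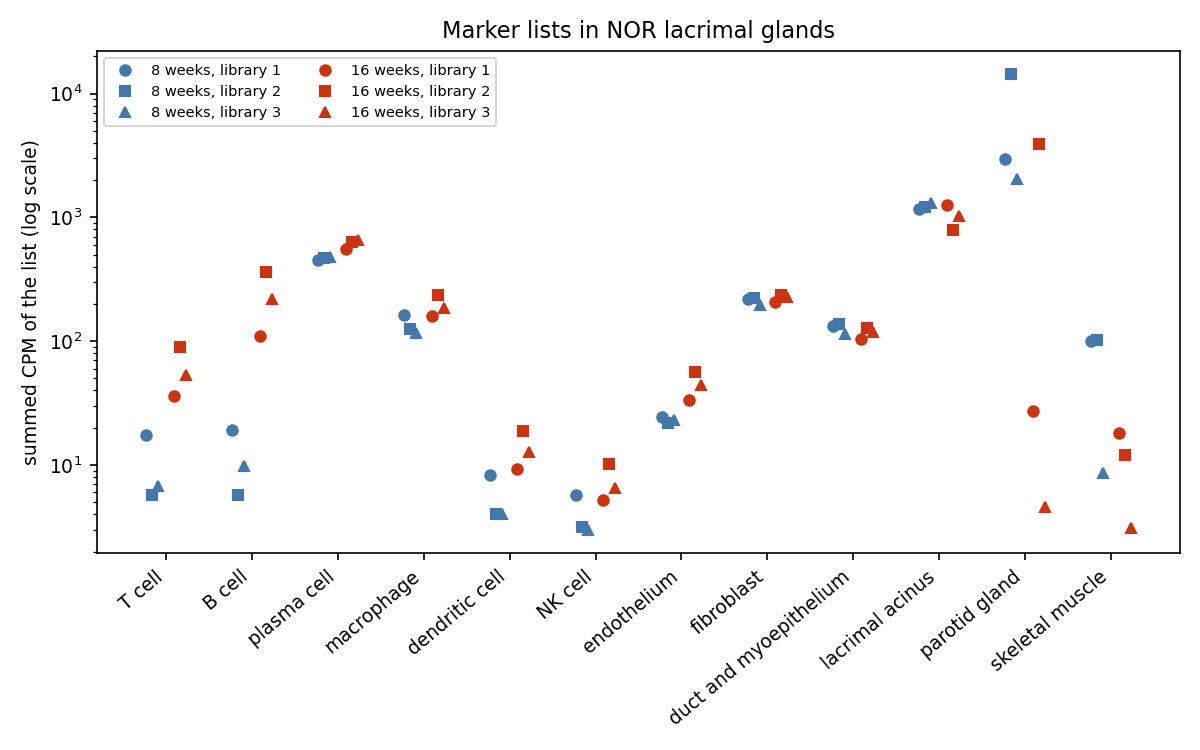
Summed level of marker genes (CPM, log scale) for each cell type in the 3 NOR libraries of 8 weeks and the 3 of 16 weeks, each point a library. The B-cell sum ran from 5.77 to 19.3 CPM at 8 weeks and from 109 to 360.1 CPM at 16 weeks, while the acinar sum ran from 1169 to 1307 CPM and from 795 to 1250.3 CPM.

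B-cell genes had the highest median among the lists with 4 or more members tested. All 5 B-cell markers were DEGs that rose, against 8.88% of all genes. Their median log2 fold change was 4.17, against -0.01 over all genes. Their sum was 19.3, 5.77 and 9.81 CPM at 8 weeks and 109, 360.1 and 220.0 CPM at 16 weeks, a 19.8-fold rise of the mean, with none at 0. Ms4a1, which encodes CD20, stood at 4.11, 0.93 and 1.76 CPM at 8 weeks and 19.9, 63.8 and 32.7 CPM at 16 weeks. Even the lowest 16-week library was several times the highest of 8 weeks. The log2 fold change of Ms4a1 was 4.10 ± 0.52 and rose to 4.90 when 8-week library 1 was left out. For Pax5, the transcription factor that fixes B-cell identity, the value was 4.04 ± 0.51 (4.72 without it). The receptor chains Cd79a and Cd79b gave 4.42 ± 0.42 and 4.17 ± 0.40.

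Of 15 genes tested in the list for B-cell receptor signalling, which was read from transcripts alone, 12 were DEGs that rose and 14 rose at the adjusted p, against 8.88% and 18.5% of all genes, with a median of 2.33. Bank1, a scaffold that links the receptor to calcium release, was at 1.11, 0.992 and 1.23 CPM at 8 weeks and 11.04, 36.002 and 24.1 CPM at 16 weeks. The groups were far apart, with the lowest 16-week value many times the highest of 8 weeks, and the log2 fold change was 4.41 ± 0.38 (edgeR quasi-likelihood, Benjamini-Hochberg adjusted p = 2.6e-06). Fcer2a, the low-affinity IgE receptor CD23 of mature B cells, stood at 3.05, 1.18 and 1.41 CPM at 8 weeks and 19.1, 60.6 and 43.8 CPM at 16 weeks, and all 3 pools of 16 weeks exceeded those of 8 weeks. Its log2 fold change of 4.45 ± 0.41 became 5.03 without 8-week library 1. The complement receptor Cr2 (CD21) gave 3.81 ± 0.47, the inhibitory receptor Cd22 4.33 ± 0.42, and the Fc receptor-like Fcrla 4.15 ± 0.49. The kinases ranged from Blk, largely restricted to B cells, at 3.97 ± 0.46 (4.65 without 8-week library 1), through Btk at 2.33 ± 0.35 and Syk at 2.13 ± 0.22, to Lyn, which myeloid cells also express, at 0.87 ± 0.16. The member that did not pass was Pik3ap1, at 0.28 ± 0.19. The 12 rising DEGs with the smallest p, which include Bank1, Fcer2a and, described elsewhere, Cd4, Cd79b, Pla2g2d and the clock gene Arntl, also held Dennd1c (2.11 ± 0.20), H2-Ob, a subunit of the B-cell modulator of class II loading (4.10 ± 0.38), the inhibitory receptor Btla (3.65 ± 0.34), the tetraspanin Cd37 (3.34 ± 0.32), the transcription factor Pou2f2 (2.82 ± 0.27) and the blood-cell GTPase Rhoh (3.18 ± 0.30).

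All 6 T-cell markers were DEGs that rose, against 8.88% of all genes, with a median of 2.52. DESeq2 called 5 of them, all but Cd3e. The 6 markers summed to 17.6, 5.70 and 6.82 CPM at 8 weeks and 35.8, 89.7 and 53.5 CPM at 16 weeks, led by Cd3g, a chain of the CD3 complex, with none at 0. In that complex Cd3g stood at 5.22, 1.92 and 1.88 CPM at 8 weeks and 9.94, 25.2 and 14.5 CPM at 16 weeks, with no overlap between ages, and rose by 2.47 ± 0.33 on the log2 scale, or 3.18 without 8-week library 1. Cd3d rose by 2.46 ± 0.39, Cd3e by 2.68 ± 0.54, Cd247 by 2.41 ± 0.48, Cd2 by 2.83 ± 0.39 and Cd5 by 2.57 ± 0.41. Leaving out 8-week library 1 raised Cd3e to 3.95, Cd247 to 3.29 and Cd2 to 3.57.

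Each of the 14 genes of T-cell receptor signalling was a DEG that rose (8.88% of all genes), with no overlap between the ages for any (22.4% of all genes were higher without overlap) and a median of 2.30. The coreceptor Cd4 stood at 6.45, 4.40 and 4.35 CPM at 8 weeks and 17.6, 46.2 and 33.6 CPM at 16 weeks, with the lowest 16-week pool well above the highest of 8 weeks. It rose by 2.68 ± 0.25 on the log2 scale (edgeR quasi-likelihood, Benjamini-Hochberg adjusted p = 2.7e-06), and the coreceptor chains Cd8a and Cd8b1 by 2.22 ± 0.33 and 2.41 ± 0.43. Per kb of transcript, Cd4 was at 1.64 and Cd8a at 0.437 CPM per kb at 8 weeks, and at 10.5 and 2.05 at 16 weeks. Macrophages can also express Cd4. The proximal kinases Lck and Zap70 rose by 2.36 ± 0.39 (3.22 without 8-week library 1) and 2.49 ± 0.34, the adaptor Lat by 2.41 ± 0.35, and the kinase Fyn by 1.29 ± 0.18.

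Among 15 tested genes of T-cell help, regulation and checkpoints, 13 rose, 12 of them as DEGs, against 18.5% and 8.88% of all genes, with a median of 1.90. Foxp3, the lineage factor of regulatory T cells, was at 0.762, 0.062 and 0.353 CPM at 8 weeks and 2.62, 7.22 and 5.85 CPM at 16 weeks. No pools overlapped, and the log2 fold change was 3.70 ± 0.49, or 4.64 without 8-week library 1. Of the checkpoint receptors, Pdcd1 (PD-1) rose by 2.48 ± 0.44, Lag3 by 2.68 ± 0.44, Ctla4 by 2.52 ± 0.59 (3.65 without that library) and Tigit by 2.36 ± 0.50 (3.34 without it). The costimulator Icos rose by 2.52 ± 0.41 (3.23 without it). Of the transcription factors that steer T-helper fates, Gata3 rose by 1.90 ± 0.47, whereas Maf did not pass, at 0.26 ± 0.16. Tbx21 gave 1.58 ± 0.54, which was 1.17 without 16-week library 2 and no longer passed, nor did it without 8-week library 2 (1.43) or 3 (1.31) or 16-week library 3 (1.59), and it was 2.24 without 8-week library 1.

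Of 11 tested genes that organize lymphoid tissue, 8 rose, 7 of them as DEGs, and 1 fell, where 18.5% of all genes rose, 8.88% as DEGs, and 18.5% fell, at a median of 1.595. The chemokine Cxcl13, which attracts B cells and follicular helper T cells, stood at 6.74, 3.97 and 5.05 CPM at 8 weeks and 19.4, 42.4 and 28.5 CPM at 16 weeks, and Ccl19, which attracts T and dendritic cells, at 1.58, 0.868 and 0.823 CPM at 8 weeks and 2.83, 7.53 and 6.70 CPM at 16 weeks. For both, every 16-week pool lay above all of 8 weeks. Their log2 fold changes were 2.52 ± 0.35 and 2.38 ± 0.42, though Ccl19 is annotated at several places with near-identical copies and its counts are uncertain. Lymphotoxin subunits Lta and Ltb rose by 3.26 ± 0.55 and 3.32 ± 0.39 (4.02 for Ltb without 8-week library 1), and the B-cell survival factor Tnfsf13b (BAFF) by 1.595 ± 0.32. The lymphotoxin receptor Ltbr passed in the other direction at -0.27 ± 0.09, with overlapping pools. That call ended in most alternatives, and with total counts the value turned to 0.00.

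Glycam1, a mucin-like product of high endothelial venules, was almost absent at 8 weeks, with 0, 1 and 0 counts at 8 weeks and 79, 323 and 59 at 16 weeks. The ratio of its levels was 469 (95% counting interval 83.7 to 18544), and the interval covers counting error only, as do all counting intervals and floors given here. Omission of 8-week library 2, which held its only count at that age, moved its log2 fold change from 8.20 to 10.01, and DESeq2 did not call it. Of the 4 genes of lymph node stroma and high endothelium in the table, the others did not pass the filter. Chst4, a sulfotransferase of such venules, had 1, 0 and 0 counts at 8 weeks and 6, 23 and 4 at 16 weeks, a ratio of 33.5 (95% counting interval 5.61 to 1364), while Ccl21a was at 0 throughout and Madcam1 held a count in 1 library. The list summed to 0.0586, 0.062 and 0 CPM at 8 weeks and 5.87, 13.6 and 6.70 CPM at 16 weeks. Among 14 tested genes of homing and adhesion, 12 rose and all of these were DEGs, against 8.88% of all genes, with a median of 1.86. The integrin chain Itgb7 stood at 7.80, 4.34 and 4.995 CPM at 8 weeks and 20.2, 45.5 and 31.3 CPM at 16 weeks, without overlap. Itgb7 and another integrin chain, Itgal, rose by 2.51 ± 0.28 and 2.01 ± 0.31. The vascular adhesion molecules Vcam1 and Icam1 rose by 1.56 ± 0.31 and 1.59 ± 0.32, and the egress receptor S1pr1 by 2.63 ± 0.29. The endothelial selectins Selp and Sele did not pass (0.29 ± 0.33 and 0.63 ± 0.61).

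Transcripts of germinal centres were low. Mef2b, a transcription factor of germinal centre B cells, gave 1, 0 and 0 counts at 8 weeks and 8, 42 and 7 at 16 weeks, a ratio of 57.9 (95% counting interval 9.99 to 2328), and Rgs13 0, 0 and 0 counts at 8 weeks and 0, 11 and 1 at 16 weeks, at least 4.07-fold higher against a floor of 3 counts over the 8-week group. Most of the counts of both came from 16-week library 2. Of 7 list members tested, 5 rose and 3 were DEGs, against 18.5% and 8.88% of all genes, with a median of 0.99; without 16-week library 2, 3 of 6 tested rose and 2 were DEGs. With 9 tested, the DEGs numbered 5 without 8-week library 1 and 6 without 16-week library 1. Cxcr5, the receptor that guides cells into follicles, rose by 3.65 ± 0.38 (4.29 without 8-week library 1). Bcl6, the master regulator of the germinal centre but also active in many tissues, was at 40.5, 53.1 and 46.7 CPM at 8 weeks and 69.4, 35.3 and 50.5 CPM at 16 weeks, with overlapping pools and a log2 fold change of 0.14 ± 0.31. Of 16 cell-cycle genes 4 rose, against 18.5% of all genes, at a list median of 0.73. The number was 10 without 16-week library 1, 2 without 8-week library 2, and 1 without 8-week library 3 or 16-week library 2, with a median of 0.43 in the last. Aurkb rose by 1.83 ± 0.36, while Pcna stayed at 16.5, 15.6 and 16.6 CPM at 8 weeks and 14.5, 17.3 and 14.9 CPM at 16 weeks. Of the other risers, Bub1b (1.27 ± 0.41) was no longer past the test without 8-week library 3 (1.11) or 16-week library 2 (0.94). Mki67 (0.71 ± 0.26) and Top2a (0.91 ± 0.28) were not past it without 8-week library 2 (0.70 and 0.87) or 3 (0.69 and 0.80) or 16-week library 2 (0.59 and 0.59), nor was Mki67 without 16-week library 3 (0.74).

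Plasma-cell markers summed to 452, 469 and 478 CPM at 8 weeks and 555, 631 and 660.2 CPM at 16 weeks, a 1.32-fold rise, led by Igj (Jchain), the joining chain of polymeric antibodies, with none at 0. Igj itself was at 248, 244 and 244 CPM at 8 weeks and 375, 498 and 489 CPM at 16 weeks, without overlap, yet it did not pass the test at 0.89 ± 0.39. Of the 5 markers, 2010001M09Rik (Mzb1) was a DEG at 1.64 ± 0.28, while Derl3, which acinar cells also use for protein quality control, fell by 0.68 on the log2 scale. A further marker passed as a DEG without 8-week library 3 or 16-week library 1. With total counts 3 markers were DEGs, and in a fit of the compared groups alone 2 were, with 3 higher at the adjusted p. Macrophage markers summed to 164, 125 and 116 CPM at 8 weeks and 160.2, 236 and 185 CPM at 16 weeks, led by C1qa, with none at 0. C1qa (0.82 ± 0.19), Cd68 (0.71 ± 0.21) and Csf1r (0.56 ± 0.17) rose, and Emr1 (Adgre1, F4/80) and Mrc1 did not pass, at 0.28 ± 0.26 and 0.03 ± 0.14. Without 8-week library 3 or 16-week library 2 just C1qa passed, with Cd68 at 0.58 and 0.57 and Csf1r at 0.50 and 0.42; Cd68 was also lost without 8-week library 2 (0.66).

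Dendritic-cell markers summed to 8.27, 4.03 and 3.996 CPM at 8 weeks and 9.25, 18.98 and 12.7 CPM at 16 weeks, led by the growth factor receptor Flt3, with none at 0 and a median of 1.15. Flt3 rose by 1.58 ± 0.34 and Siglech, of plasmacytoid cells, by 1.20 ± 0.33, while Clec9a, Xcr1 and Zbtb46 did not pass. Of all genes, 18.5% rose. Without library 1 of 8 or of 16 weeks 4 of the 5 rose. The DEGs of all genes then numbered 1530 and 1828 in place of 1292. Those counts take in both directions and need the fold threshold too, so they are no direct share for the 4. Siglech came under the fold threshold without 8-week library 2 (0.99) and failed the test without 16-week library 2 (0.84). The 3 markers of NK cells summed to 5.69, 3.16 and 2.997 CPM at 8 weeks and 5.18, 10.2 and 6.48 CPM at 16 weeks, led by Ncr1, with none at 0. Klrb1c (1.13 ± 0.43) and Klrd1 (1.08 ± 0.39) were DEGs with overlapping pools. Neither was called without 8-week library 2 (1.02 and 1.03) or 3 (0.99 and 0.89), or without 16-week library 2 (0.64 and 0.87) or 3 (1.22 and 1.08). Mast-cell markers summed to 7.04, 4.96 and 4.47 CPM at 8 weeks and 9.25, 7.96 and 9.46 CPM at 16 weeks, led by the protease Mcpt4. Of the 3 tested, Cma1 (0.91 ± 0.30) and Cpa3 (0.67 ± 0.23) rose, with neither past the test without 8-week library 2 (0.86 and 0.61) or 3 (0.76 and 0.64), nor Cma1 without 16-week library 3 (0.84) or Cpa3 without 16-week library 2 (0.68). Neutrophil markers were close to absent, at 0.586, 0.062 and 0.118 CPM at 8 weeks and 0.552, 1.02 and 0.425 CPM at 16 weeks for the 3 in the table, led by S100a9, and none passed the filter.

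Of 9 tested genes of cytotoxic effectors, 5 rose, all as DEGs, against 8.88% of all genes, with a median of 1.22; the number was 3 of 9 without 16-week library 2. A 10th member entered the test in some other omissions, and 3 of 10 then rose without 8-week library 2 or 3, 9 of 10 without 8-week library 1 and 8 of 10 without 16-week library 1. Gzmk, a granzyme of memory and tissue T cells, stood at 0.469, 0.248 and 0.353 CPM at 8 weeks and 1.04, 2.39 and 1.38 CPM at 16 weeks and rose by 2.19 ± 0.50, with no overlap. Granzyme Gzma was at 4.63, 1.43 and 1.53 CPM at 8 weeks and 2.76, 5.02 and 3.19 CPM at 16 weeks, and its relative Gzmb at 0.997, 0.434 and 0.118 CPM at 8 weeks and 0.621, 1.02 and 0.85 CPM at 16 weeks. For both the pools overlapped and the test did not pass. The pore former Prf1 did not pass either, at 0.96 ± 0.54.

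Genes of antigen presentation on MHC class II rose. Cd74, the invariant chain that escorts class II molecules, stood at 262, 186 and 156 CPM at 8 weeks and 456, 1059.9 and 754 CPM at 16 weeks, and H2-Aa, an alpha chain, at 129, 84.9 and 72.9 CPM at 8 weeks and 190.4, 491 and 311 CPM at 16 weeks. For both, the least of the 16-week pools exceeded all of 8 weeks, and 16-week library 2 was highest. Cd74 rose by 1.91 ± 0.24 and H2-Aa by 1.79 ± 0.26, the beta chains H2-Ab1 and H2-Eb1 by 1.80 ± 0.24 and 1.88 ± 0.25, and the loading factor H2-DMa by 1.84 ± 0.28. H2-Oa and H2-DMb2, largely of B cells, rose by 3.99 ± 0.50 and 2.90 ± 0.41, or 4.70 and 3.53 without 8-week library 1. In all, 11 of 12 members rose and 10 were DEGs, against 18.5% and 8.88% of all genes, with a median of 1.86. The exception was the costimulator Cd80 (1.12 ± 0.58), while its relative Cd86, at 0.68 ± 0.22, was not past the test without 8-week library 3 (0.64) or 16-week library 2 (0.52). Reads of H2 and Gbp genes can be shared among close relatives, and these values are uncertain to that degree.

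Genes driven by interferon gamma and by type I interferon were read as 2 lists, whose difference was not tested. Of 19 tested genes of the type II list, 18 rose and 15 were DEGs, against 18.5% and 8.88% of all genes, with a median of 1.30; these DEGs numbered 9 without 16-week library 2, 10 without 8-week library 3 and 11 without 8-week library 2. Ciita, the switch for class II genes, was at 9.38, 5.77 and 5.58 CPM at 8 weeks and 20.2, 54.6 and 34.02 CPM at 16 weeks, without overlap, and rose by 2.40 ± 0.32. Irf8 rose by 1.19 ± 0.15, Psmb9, a subunit of the immunoproteasome, by 1.48 ± 0.27, the GTPases Gbp4 and Gbp5 by 1.72 ± 0.32 and 1.73 ± 0.29, and the checkpoint ligand Cd274 (PD-L1) by 1.59 ± 0.32. Of 21 genes of the type I list, 2 rose, against 18.5% of all genes, and the median was 0.09, close to that of all genes; 5 rose without 8-week library 1 or 16-week library 1 and 1 without 8-week library 2 or 3 or 16-week library 2. The median was -0.03 without 16-week library 2, 0.01 without 8-week library 3, 0.15 and 0.16 without 8-week library 2 and 16-week library 3, 0.40 without 8-week library 1, 0.34 without 16-week library 1 and 0.57 without both of the latter, and with total counts 0.38, against 0.26 for all genes. Zbp1, a sensor of nucleic acids that rose by 0.89 ± 0.29, failed the test without 8-week library 2 (0.82) or 3 (0.66) or 16-week library 2 (0.53). Ifit1, a standard target of type I interferon, was at 12.6, 10.9 and 7.99 CPM at 8 weeks and 6.28, 11.6 and 8.61 CPM at 16 weeks, and Isg15, another, at 6.57, 3.91 and 4.35 CPM at 8 weeks and 2.49, 5.41 and 4.997 CPM at 16 weeks. Both overlapped, with log2 fold changes of -0.23 ± 0.27 and -0.20 ± 0.35. The gamma interferon gene Ifng itself had 1, 4 and 2 counts at 8 weeks and 3, 20 and 11 at 16 weeks, below the filter.

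Of 20 chemokines tested, 6 rose and 5 of these were DEGs, against 18.5% and 8.88% of all genes, with a median of 0.39; there were 3 DEGs without 8-week library 3 or 16-week library 2 and 7 without 8-week library 1 or 16-week library 1. Ccl22 and Ccl20, ligands of Ccr4 and Ccr6, rose by 1.91 ± 0.40 and 1.92 ± 0.36. Cxcl9, a ligand of Cxcr3 induced by interferon gamma, was at 17.8, 5.39 and 6.23 CPM at 8 weeks and 15.3, 45.1 and 29.02 CPM at 16 weeks, where 8-week library 1 lay above 16-week library 1, and rose by 1.61 ± 0.36, or 2.41 without the former. Its relative Cxcl10 did not pass (0.58 ± 0.48). Ccl8 rose by 1.06 ± 0.29, with 0.93 and no DEG call without 16-week library 2, and failed the test without 8-week library 3 (0.82). Ccl5 rose by 1.003 ± 0.30, but failed the test without 8-week library 2 (0.91) or 3 (0.71) or 16-week library 2 (0.76), and was at 1.595 without 8-week library 1. Cxcl16 rose by 0.92 ± 0.22. The monocyte and neutrophil attractants Ccl2, Ccl7 and Cxcl1 did not pass, at 0.21 ± 0.55, -0.51 ± 0.48 and -0.43 ± 0.37, and Cxcl15 was at 0 in all 6 libraries.

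Of 15 chemokine receptors tested, 9 rose and 7 were DEGs, against 18.5% and 8.88% of all genes, with a median of 1.12; the DEGs numbered 5 of 15 without 16-week library 2 and, with 16 tested, 5 without 8-week library 3, 11 without 16-week library 1 and 10 without 8-week library 1 (4.29 then for Cxcr5). Ccr6 was at 0.586, 0.496 and 1.12 CPM at 8 weeks and 4.004, 10.1 and 7.34 CPM at 16 weeks and Cxcr3 at 2.29, 1.30 and 0.881 CPM at 8 weeks and 4.49, 7.84 and 6.91 CPM at 16 weeks, with no overlap, and they rose by 3.28 ± 0.39 and 2.10 ± 0.37. Cxcr4, the receptor for Cxcl12, rose by 3.08 ± 0.41, and Ccr7, which leads cells to Ccl19, by 2.38 ± 0.36. Ccr2 of monocytes did not pass (0.65 ± 0.29).

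Of 28 cytokine genes in the list, 15 passed the filter, and 6 of these rose and Tnfsf13 fell, against 18.5% of all genes in each direction, with a median of 0.37. Il16, which lymphocytes store as a precursor, stood at 7.39, 4.59 and 5.47 CPM at 8 weeks and 16.6, 44.7 and 28.7 CPM at 16 weeks and rose by 2.38 ± 0.29, and Il1b was at 1.17, 1.05 and 1.41 CPM at 8 weeks and 2.42, 3.96 and 4.04 CPM at 16 weeks and rose by 1.51 ± 0.33. The pools of each age did not overlap for either. Tgfb1 rose by 1.66 ± 0.26 and the alarmin Il33 by 0.93 ± 0.22, while Tnf was at 2.76, 2.36 and 1.82 CPM at 8 weeks and 2.83, 4.51 and 2.98 CPM at 16 weeks with a log2 fold change of 0.60 ± 0.37 that did not pass. The remaining risers, Il12b (1.47 ± 0.43) and Il18 (1.15 ± 0.37), were DEGs that lost the call without 8-week library 2 (1.44 and 1.18) or 3 (1.16 and 0.87) or 16-week library 2 (1.30 and 0.81). The 5 DEGs among 15 tested became 3 of 15 without 16-week library 2. The filter passed 19 members in some other omissions, of which 3 were DEGs without 8-week library 3, 8 without 8-week library 1 and 9 without 16-week library 1, so that these numbers are not over the same members. Tnfsf13 (-0.53 ± 0.17) did not pass without 8-week library 2 (-0.36) or 16-week library 2 (-0.36) or 3 (-0.46). Il13, Il17a and Il22 were at 0 in all 6 libraries. Il21, of follicular helper cells, had 4, 0 and 1 counts at 8 weeks and 3, 29 and 6 at 16 weeks, too few for the test.

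Of 15 complement genes, 12 rose and 4 were DEGs, against 18.5% and 8.88% of all genes, with a median of 0.91; the DEGs numbered 9 without library 1 of 8 or of 16 weeks and 11 with total counts. C3, the central component, stood at 181, 123 and 129 CPM at 8 weeks and 273, 491 and 379 CPM at 16 weeks, with every 16-week pool above those of 8 weeks, and rose by 1.40 ± 0.26. The regulator Cd55 rose by 2.23 ± 0.30 and C4b by 0.92 ± 0.23, whereas the anaphylatoxin receptors C3ar1 and C5ar1 did not pass (0.15 ± 0.23 and -0.37 ± 0.26).

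**Figure D2:**
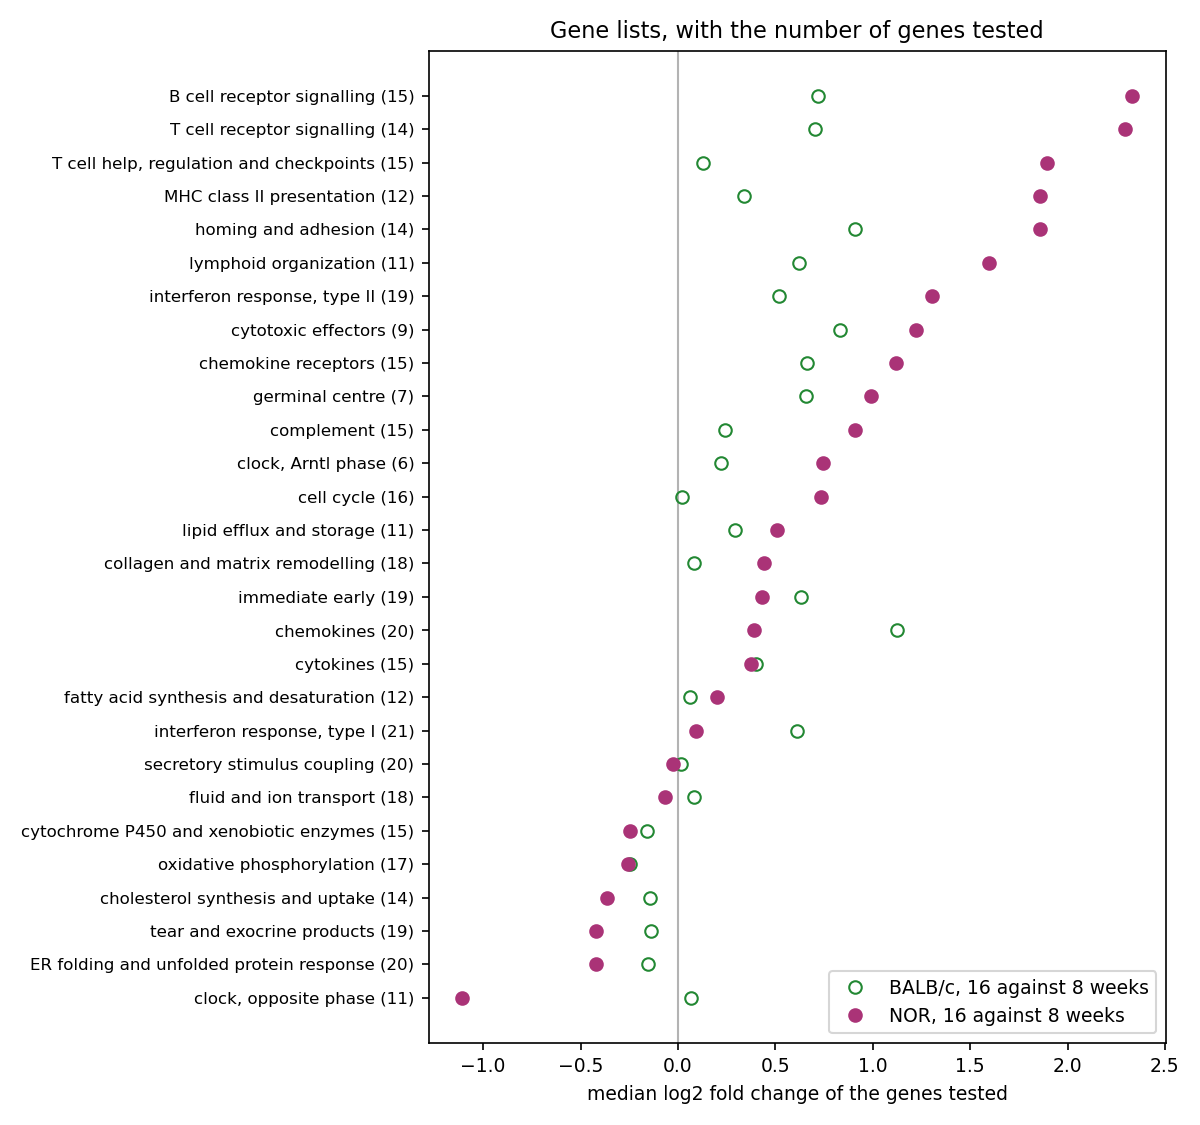
Median log2 fold change from 8 to 16 weeks of the tested members of each pathway list (horizontal axis) in NOR and in BALB/c LGs. The line marks no change, and the lists of cell-type markers are not plotted. The list of B-cell receptor signalling stood at 2.33 in NOR. Lists of oxidative phosphorylation (-0.25), cytochrome P450 enzymes (-0.24), fluid transport (-0.07) and secretory stimulus coupling (-0.02) changed sign in NOR when total counts replaced TMM factors. They then stood at 0.01, 0.02, 0.20 and 0.23.

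Fewer genes changed in glands of the healthy strain over the same ages. In BALB/c, 59 genes were DEGs (0.441%), 57 higher (0.426%) and 2 lower (0.015%; Smr2, of the parotid list, and Gm9897, named after its values were seen), 236 passed the adjusted p alone (1.76%) and 2235 had an unadjusted p under 0.05 (16.7%). The change with age differed between NOR and BALB/c for 381 DEGs (2.85%), with 273 more positive in NOR (2.04%) and 108 more negative (0.807%), while 1071 passed at the adjusted p alone (8.01%) and 3491 had an unadjusted p under 0.05 (26.1%). Those 381 include 252 of the 1188 genes that rose as DEGs in NOR and 38 of the 104 that fell. These comparisons share the NOR libraries. The 59 became 33 without BALB/c 8-week library 3, 37 without 8-week library 1 and 36 without 16-week library 3. The 381 became 147 without NOR 16-week library 2 and 832 without NOR 16-week library 1. They numbered between 206 and 248 without NOR 8-week library 2 or 3, BALB/c 8-week library 1 or 3, or BALB/c 16-week library 1 or 2, and 998 with library 1 of both NOR ages left out.

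The strain difference passed for some lymphoid genes. Cd74 in BALB/c was at 55.3, 53.002 and 62.5 CPM at 8 weeks and 58.2, 60.5 and 88.4 CPM at 16 weeks, with overlapping pools. The NOR change exceeded the BALB/c change by 1.63 ± 0.33 on the log2 scale (edgeR quasi-likelihood, Benjamini-Hochberg adjusted p = 0.0086). The same test called Pla2g2d, a secreted phospholipase of dendritic cells and macrophages in lymphoid organs, which in NOR stood at 2.35, 1.98 and 1.29 CPM at 8 weeks and 11.7, 31.9 and 19.2 CPM at 16 weeks without overlap. Its NOR log2 fold change was 3.49 ± 0.31, against 0.66 ± 0.34 in BALB/c, a difference of 2.83 ± 0.47. B-cell markers were near the floor in BALB/c, where the 5 summed to 0, 0.21 and 0.395 CPM at 8 weeks and 0.57, 0.381 and 4.56 CPM at 16 weeks, so that their change there was measured with little precision. Their list median was 4.17 in NOR and 2.96 in BALB/c, and the strain difference passed for 0 of 5 at the adjusted p and for 0 at an unadjusted p under 0.05 (edgeR quasi-likelihood; by DESeq2 0 and 1). For the 6 T-cell markers, with medians of 2.52 and 1.19, the numbers were 0 and 0, and 0 and 1 by DESeq2. With library 1 of both NOR ages left out, 1 T-cell marker passed the adjusted p. The median difference was 1.20 for B-cell markers and ranged from 0.72 to 3.71 without BALB/c 16-week libraries 1 and 3, and for T-cell markers it was 1.30, from 0.28 without BALB/c 8-week library 1 to 2.26 without 16-week library 3. T-cell markers were also near the floor in BALB/c, with a mean sum of 0.304 CPM at 8 weeks and 0.688 CPM at 16 weeks. With levels this low in BALB/c, the test could not decide whether the gain of B-cell or T-cell markers was larger in NOR on the log scale.

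By the smallest p in this test, the genes with the more positive change in NOR were Arntl, Arhgef1, Csk, Ezr and Dennd1c. Arhgef1, a guanine nucleotide exchange factor of blood cells, was at 34.8, 33.05 and 31.6 CPM at 8 weeks and 60.5, 109 and 89.7 CPM at 16 weeks in NOR and 29.3, 31.1 and 27.8 CPM at 8 weeks and 30.2, 29.7 and 33.4 CPM at 16 weeks in BALB/c, high at 16 weeks in NOR alone of these 4 groups. Its difference was 1.30 ± 0.19. Csk, the kinase that restrains Src-family kinases, differed by 1.57 ± 0.25, Ezr, which ties membrane to actin, by 1.13 ± 0.18, and Dennd1c by 1.91 ± 0.30. Their NOR changes were 1.53 ± 0.17, 1.10 ± 0.13 and 2.11 ± 0.20, with Ezr at 0.97 and under the fold threshold without 16-week library 2. At the other end were Thbs1, Cyp2a5, Dsc2, Dhtkd1 and Gyltl1b. Thbs1, a matrix glycoprotein, stood at 21.8, 19.4 and 11.1 CPM at 8 weeks and 10.7, 15.2 and 17.97 CPM at 16 weeks in NOR, with overlap, but at 2.28, 2.87 and 2.93 CPM at 8 weeks and 41.95, 61.5 and 28.7 CPM at 16 weeks in BALB/c, where every 16-week pool was above those of 8 weeks. The difference was -4.27 ± 0.39.

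Among the genes that fell in NOR glands, Cyp2a5, a cytochrome P450 of detoxification, had the smallest p of all genes tested and stood at 271, 229.9 and 317 CPM at 8 weeks and 41.1, 33.5 and 34.4 CPM at 16 weeks, with every 16-week pool far below those of 8 weeks. It fell by 2.91 on the log2 scale (SE 0.17; edgeR quasi-likelihood, Benjamini-Hochberg adjusted p = 8.6e-09), against -0.63 ± 0.16 in BALB/c, with a difference between strains of -2.27 ± 0.23. Its close paralog Cyp2a4 may share reads, and had 6, 3 and 5 counts at 8 weeks and 0, 1 and 0 at 16 weeks. Rab26, a GTPase of secretory granules, stood at 7.45, 8.87 and 6.58 CPM at 8 weeks and 2.55, 2.20 and 2.76 CPM at 16 weeks and changed by -1.64 ± 0.17. Dsc2, a desmosomal cadherin, was at 48.2, 46.9 and 48.7 CPM at 8 weeks and 24.3, 20.001 and 23.1 CPM at 16 weeks, with log2 fold change -1.10 ± 0.09. For both, no 16-week pool reached the level of any pool of 8 weeks.

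The remaining falling DEGs with the smallest p outside the clock were the glycosyltransferase Gyltl1b (Large2, -1.04 ± 0.10), the membrane protease Tmprss4 (-1.08 ± 0.11), the calcium-signalling scaffold Homer2 (-1.16 ± 0.13), the adhesion molecule Cadm4 (-1.03 ± 0.12) and the actin-binding Cald1 (-1.13 ± 0.13). These values lay close to the fold threshold. Without 16-week library 2 they were under it for Dsc2 (-0.98), Gyltl1b (-0.96), Homer2 (-0.98) and Cadm4 (-0.87). Leaving out 16-week library 3 gave -0.97 for Gyltl1b, -0.96 for Tmprss4 and -0.99 for Cald1. Without 8-week library 1, Gyltl1b was at -0.99 and Cadm4 at -0.97, and Cadm4 was at -0.98 without 8-week library 2 and Gyltl1b at -0.98 without 8-week library 3. All of them passed the adjusted p in these fits. Dhtkd1, a mitochondrial enzyme of lysine breakdown, fell by 0.66 on the log2 scale in NOR and differed between strains by -1.45 ± 0.16.

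Among the 6 acinar markers, Aqp5, the water channel of the apical membrane, Chrm3, the muscarinic receptor that drives secretion, and Rab3d, a GTPase of secretory granules, fell, with a list median of -0.33 (-0.08 with total counts). Rab3d was at 258, 274 and 270.4 CPM at 8 weeks and 218, 145 and 181 CPM at 16 weeks, all 16-week pools below those of 8 weeks, with a log2 fold change of -0.56 ± 0.11. Aqp5 stood at 117, 119 and 129 CPM at 8 weeks and 109, 78.1 and 94.8 CPM at 16 weeks, with -0.37 ± 0.09, and Chrm3 at -0.45 ± 0.13. Both failed the test with total counts and without 16-week library 2, at -0.21 and -0.27 in the latter, the library with the most lymphocyte and least acinar transcript. How far the share of lymphocytes in a pool moved these genes was not tested.

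Of 20 genes of endoplasmic reticulum folding and the unfolded protein response, 14 fell, and 13 were lower in every 16-week library than in any of 8 weeks, against 18.5% and 22.2% of all genes, at a median of -0.42. With total counts the median was -0.17, against 0.26 for all genes, and 6 fell, where 644 of all 13376 genes fell in place of 2468. The number of these 20 that fell was 5 without 16-week library 2 or in a fit of the compared groups alone. It was 8 without 8-week library 3 or 16-week library 3. The list summed to 6655, 6507 and 7401 CPM at 8 weeks and 6115, 4445 and 4837 CPM at 16 weeks, led by the chaperone Hspa5 (BiP). Xbp1, the transcription factor that expands the secretory pathway, stood at 584, 512 and 595 CPM at 8 weeks and 387, 293 and 367 CPM at 16 weeks, with a gap between the ages, and changed by -0.69 ± 0.13. The folding factor Manf changed by -0.51 ± 0.10, Sdf2l1 by -0.55 ± 0.10 and the translocon subunit Sec61b by -0.42 ± 0.08, while Ddit3 (CHOP), induced by unresolved stress, was at 5.69, 4.53 and 5.94 CPM at 8 weeks and 5.94, 5.49 and 5.42 CPM at 16 weeks, with overlapping pools. Hspa5 itself was at 1161, 1136 and 1347 CPM at 8 weeks and 1097, 749.7 and 808 CPM at 16 weeks and changed by -0.46 ± 0.15, a call that ended without 8-week library 1 (-0.45) or 3 (-0.38) and without 16-week library 2 (-0.32) or 3 (-0.36).

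Of 19 tested products released into tears, 10 fell and 3 rose, against 18.5% of all genes in each direction, with a median of -0.42. With total counts the median was -0.15, and 8 fell and 6 rose, where 644 of all 13376 genes fell and 3979 rose. The number of these products that fell was 4 without 16-week library 2 or 3, 6 without 8-week library 1 and 5 without 8-week library 2 or 3. Tcn2, which carries vitamin B12, stood at 166, 171 and 174 CPM at 8 weeks and 113, 105 and 105 CPM at 16 weeks, all 16-week pools lower, and changed by -0.67 ± 0.09, and Egf, the growth factor of tears, by -0.52 ± 0.12. Lactoferrin (Ltf) was at 1492, 1541 and 1427 CPM at 8 weeks and 1615, 1416 and 1639.8 CPM at 16 weeks, with overlap, and the odorant-binding Obp1a at 10077, 21552 and 21867 CPM at 8 weeks and 23780.0, 22088 and 33920.4 CPM at 16 weeks, where the ages did not overlap but the test did not pass (0.58 ± 0.30). The risers were the lysozymes Lyz2, which macrophages express, at 1.30 ± 0.22, and Lyz1 at 0.66 ± 0.22, and Gm6084 (Esp1), a male pheromone peptide, at 1.06, 2.23 and 2.12 CPM at 8 weeks and 5.32, 3.06 and 7.34 CPM at 16 weeks. Lyz1 was not past the test without 8-week library 1 (0.68) or 3 (0.61) or 16-week library 2 (0.45). Gm6084 changed by 1.44 ± 0.43, and by 1.20, short of the test, without 16-week library 3. Mucl1, a small mucin, was at 2.87, 1.30 and 3.47 CPM at 8 weeks and 1.45, 0.588 and 0.744 CPM at 16 weeks, the only member to fall as a DEG (-1.53 ± 0.38; -1.10 and not past the test without 16-week library 2). The androgen-binding protein Abpe (Scgb2b2) was at 79092, 79919.7 and 95935 CPM at 8 weeks and 87554, 58196 and 72765 CPM at 16 weeks, and Abpz (Scgb2b24) at 37647, 34094 and 42333 CPM at 8 weeks and 39009, 25880.3 and 25806 CPM at 16 weeks. Both overlapped and were short of the test. These families hold near-identical copies and their counts are uncertain.

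By level per kb, the most abundant genes that fell were Gm1553, Pip, Gm5494 (Esp6), Lcn11, Sval2, Gm9041, Gm12887 and Dnase1. Pip, the prolactin-induced protein, stood at 16219, 14738 and 18148 CPM at 8 weeks and 13706, 8618 and 7919.6 CPM at 16 weeks, with every 16-week pool below those of 8 weeks and library 1 the nearest to them. Its log2 fold change was -0.70 ± 0.20, and those of the others were -0.77 ± 0.23, -0.55 ± 0.19, -0.63 ± 0.21, -0.76 ± 0.20, -0.88 ± 0.24, -0.71 ± 0.18 and -0.78 ± 0.26 in the order named. Without 16-week library 2 all but Sval2 were short of the threshold, at -0.56 for Pip, -0.55, -0.40, -0.48, -0.65, -0.52 and -0.61, and without 16-week library 3 Pip (-0.52), Gm1553 (-0.65), Gm5494 (-0.45), Lcn11 (-0.43) and Dnase1 (-0.70). Of the 8-week libraries, omission of library 3 ended the calls of Pip (-0.62), Gm1553 (-0.69), Gm5494 (-0.52), Lcn11 (-0.55) and Dnase1 (-0.76), of library 2 those of Gm5494 (-0.55), Lcn11 (-0.64) and Dnase1 (-0.71), and of library 1 those of Gm5494 (-0.53) and Lcn11 (-0.61).

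The most abundant genes that rose, by the same measure, were Tmsb4x, Cd74, Apoe, Fth1, Rps20, H2-D1, H2-Aa and Rps9. Tmsb4x, which binds actin monomers and is plentiful in leukocytes, stood at 272, 218 and 189 CPM at 8 weeks and 357, 561 and 437 CPM at 16 weeks and Apoe, the lipid carrier made by macrophages, at 263, 242 and 235 CPM at 8 weeks and 358, 461 and 415 CPM at 16 weeks. In both, 16-week library 2 was highest and no pools overlapped. They rose by 0.998 ± 0.18 and 0.74 ± 0.15, and the class I chain H2-D1 by 0.81 ± 0.19. Ferritin Fth1 and the ribosomal Rps9 rose by 0.36 ± 0.09 and 0.37 ± 0.09, and Rps20 by 0.24 ± 0.09, not past the test without 8-week library 2 (0.26) or 3 (0.22) or 16-week library 2 (0.22).

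In the coupling of nerve stimulus to secretion, 4 of 20 tested genes rose and 4 fell, close to the 18.5% of all genes in each direction. The list median was -0.02, and with total counts it changed sign to 0.23, against 0.26 for all genes. It was also positive with DESeq2 (0.02) and with its size factors (0.015). Release channels for stored calcium rose, Itpr1 by 0.99 ± 0.16 and Itpr2 by 0.99 ± 0.16, while Itpr3, the isoform with the highest level per kb of these 3, was at 113, 119 and 109.8 CPM at 8 weeks and 99.5, 100.3 and 104 CPM at 16 weeks and did not pass. Itpr2 stood at 8.91, 8.99 and 9.11 CPM at 8 weeks and 15.5, 20.6 and 17.3 CPM at 16 weeks, with each 16-week pool above all of 8 weeks. The list held 1 DEG. Without 8-week library 1 or 16-week library 1 there were 3, and without 8-week library 2 or 16-week library 3 there were 2. The number was 4 with total counts. It was 3 with DESeq2's size factors, TMM without the 20 most abundant genes or a mean CPM of at least 1. With 22 members tested, DESeq2 and the fit without a low-count filter also gave 3. The muscarinic receptor Chrm1 and the alpha-1 adrenergic receptor Adra1a fell, at -0.58 ± 0.15 and -0.75 ± 0.20, and were not past the test without 16-week library 2 (-0.36 and -0.39). Without that library 1 of the 20 fell, and 6 without 16-week library 1.

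Of 18 genes of fluid and ion transport, 5 fell and 1 rose, against 18.5% of all genes in each direction, with a median of -0.07 that changed sign with total counts, to 0.20; the 5 no longer passed with total counts, and 2 fell without 16-week library 2, while 2 genes rose without 8-week library 2 or 16-week library 1. Slc9a3r1, a scaffold of apical transporters, stood at 67.8, 68.6 and 67.5 CPM at 8 weeks and 55.2, 50.4 and 55.9 CPM at 16 weeks, without overlap, at -0.34 ± 0.07, and the chloride exchanger Clcn3 at -0.42 ± 0.11 (-0.27 and short of the test without 16-week library 2). The chloride channel Ano1 was at 35.4, 36.3 and 35.96 CPM at 8 weeks and 32.8, 34.8 and 36.3 CPM at 16 weeks and the cotransporter Slc12a2 at 36.01, 47.9 and 40.7 CPM at 8 weeks and 34.4, 35.7 and 36.1 CPM at 16 weeks, with overlap in both.

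Of 14 tested genes of cholesterol synthesis and uptake, 5 fell and 1 rose, against 18.5% of all genes in each direction, at a median of -0.36 (-0.08 with total counts). Fdps, which makes farnesyl diphosphate, was at 37.7, 41.1 and 47.5 CPM at 8 weeks and 26.7, 19.6 and 26.05 CPM at 16 weeks and Hmgcs1, at the start of the pathway, at 83.1, 86.4 and 101 CPM at 8 weeks and 68.1, 45.5 and 56.3 CPM at 16 weeks. All 16-week pools were below those of 8 weeks for both. They changed by -0.82 ± 0.11 and -0.67 ± 0.12, and Insig1, Lss and Dhcr7 by -0.80 ± 0.13, -0.72 ± 0.13 and -0.70 ± 0.11, while the regulator Srebf2 rose by 0.38 ± 0.09. The 6 calls of this list held with each of the 6 libraries left out, and a further gene rose without 16-week library 1.

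Of 12 genes of fatty acid synthesis and desaturation, 4 rose and 3 fell, against 18.5% of all genes in each direction (median 0.20, and 0.47 with total counts, where 5 rose and 1 fell), with 2 that rose without 8-week library 2 or 3 or 16-week library 2 and 1 that fell without the last. Elovl5 rose by 0.75 ± 0.16 and the desaturase Fads2, as a DEG, by 1.56 ± 0.37, while Acly changed by -0.36 ± 0.08 and Fasn was at 149, 177 and 135 CPM at 8 weeks and 146, 127 and 147 CPM at 16 weeks, with overlap. In lipid efflux and storage, 5 of 11 rose and Soat1 fell, against the same shares, with a median of 0.51. Gpnmb, a glycoprotein of lipid-laden macrophages, was at 3.28, 2.23 and 2.88 CPM at 8 weeks and 7.73, 10.5 and 11.4 CPM at 16 weeks, with the ages far apart, and rose by 1.81 ± 0.24. Abca1 rose by 0.32 ± 0.08, and Abcg1 and Nr1h3 (LXR alpha) by 1.12 ± 0.23 and 1.03 ± 0.23. These 3 DEGs, Gpnmb, Abcg1 and Nr1h3, were reduced to Gpnmb without 8-week library 3 (0.95 and 0.96) or 16-week library 2 (0.92 and 0.83), and Nr1h3 was at 0.98 without 8-week library 2. Soat1, at -0.33 ± 0.12, failed the test without any of 5 libraries, all but 16-week library 1, at values from -0.36 to -0.17.

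Among 15 tested cytochrome P450 and xenobiotic enzymes, 5 fell and 1 rose, against 18.5% of all genes in each direction (median -0.24, and 0.02 with total counts, a change of sign), with 3 that fell without 16-week library 2 and 2 that rose without 16-week library 1. Besides Cyp2a5, Cyp2f2 fell from levels of 79.998, 94.6 and 108 CPM to 60.6, 44.6 and 51.9 CPM, all lower, with a change of -0.85 ± 0.15, and the glutathione transferase Gsta3 changed by -0.63 ± 0.09. Cyp1b1 rose as a DEG by 2.18 ± 0.45. Cyp2c29 and Ugt2b34 were at 0 in all 6 libraries. In oxidative phosphorylation 7 of 17 genes fell, against 18.5% of all genes, with a median of -0.25. The BALB/c median was -0.24, and the strain difference passed for 0 of the 17. With total counts the NOR median turned to 0.01 and 1 fell, where 644 of all 13376 genes fell. Without 16-week library 2, 3 fell. Cytochrome c (Cycs) was at 9.33, 7.44 and 10.3 CPM at 8 weeks and 6.01, 5.18 and 4.997 CPM at 16 weeks, lower in all pools of 16 weeks, and changed by -0.74 ± 0.16, and the ATP synthase subunit Atp5b by -0.43 ± 0.10.

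Clock genes changed in a pattern by phase. The circadian clock is a feedback loop in which Arntl (BMAL1) and Clock or Npas2 switch on the Per, Cry and Nr1d genes, whose products then repress Arntl and its partners, so that genes of the 2 arms peak at opposite times of day. Arntl was at 0.938, 0.868 and 0.881 CPM at 8 weeks and 15.8, 14.04 and 12.3 CPM at 16 weeks, close to constant within each age and 15.7-fold higher at 16 weeks. Its log2 fold change was 3.96 ± 0.35 (edgeR quasi-likelihood, Benjamini-Hochberg adjusted p = 2.6e-06). Npas2 stood at 0.352, 0.248 and 0.235 CPM at 8 weeks and 1.86, 1.88 and 1.59 CPM at 16 weeks and rose by 2.65 ± 0.43, without overlap, and Nfil3, a repressor of D-box genes, by 1.01 ± 0.31. Nfil3 was at 0.93 and short of the test without 8-week library 2, and at 0.85 without 16-week library 1. Of the other 3 members of that arm, Cry1, which lags behind the Per genes, fell to 7.04, 5.37 and 6.17 CPM from 8.04, 9.18 and 9.81 CPM (-0.55 ± 0.13; -0.40 and short of the test without 16-week library 2). Clock gave 0.47 ± 0.18, with a call that ended in 4 of the 6 omissions, all but those of 8-week library 2 and 16-week library 2, at values between 0.35 and 0.63.

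In the opposite arm, 9 of 11 genes fell, against 18.5% of all genes tested, and 7 of these were DEGs, against 0.778%. For 10 of the 11 all 16-week pools were below those of 8 weeks, against 22.2% of all genes. The median was -1.11, and -0.85 with total counts. With total counts 4 of the 11 were DEGs, where 42 of all genes fell as DEGs in place of 104. Without 16-week library 2 there were also 4, where the DEGs of all genes in either direction numbered 819 in place of 1292. Dbp, a D-box activator, stood at 10.6, 13.4 and 9.81 CPM at 8 weeks and 0.897, 1.88 and 1.59 CPM at 16 weeks, a drop in which no 16-week pool came near those of 8 weeks, and changed by -2.90 ± 0.30. Per3 was at 28.3, 30.1 and 29.2 CPM at 8 weeks and 5.38, 6.59 and 10.7 CPM at 16 weeks and Per2 at 15.9, 17.7 and 19.98 CPM at 8 weeks and 4.90, 4.35 and 4.89 CPM at 16 weeks, again far apart, with -2.00 ± 0.22 and -1.94 ± 0.33. Tef changed by -1.12 ± 0.12, Nr1d2 (REV-ERB beta) by -1.11 ± 0.12, Gm129 (Ciart) by -1.78 ± 0.33 and Usp2 by -1.03 ± 0.15. Of these, Tef (-0.98), Nr1d2 (-0.96) and Usp2 (-0.84) came under the fold threshold without 16-week library 2, and Usp2 also without 8-week libraries 1 (-0.999) or 2 (-0.996) or 16-week library 3 (-0.96), with the adjusted p still passed. Nr1d1 was at 23.1, 23.3 and 22.2 CPM at 8 weeks and 20.02, 16.3 and 24.9 CPM at 16 weeks, with overlap, and Per1 at -0.43 ± 0.22, neither past the test. Hlf gave -0.76 ± 0.23 and Bhlhe41 -0.67 ± 0.25, which failed the test in 4 and 5 of the 6 omissions of a library, at values from -0.93 to -0.58 and from -0.78 to -0.45.

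In BALB/c the same genes did not shift together. Arntl was at 6.92, 5.45 and 4.34 CPM at 8 weeks and 15.1, 4.41 and 8.22 CPM at 16 weeks there, with overlap between ages, and its change of 0.77 ± 0.28 did not pass. The difference between strains was 3.19 ± 0.47 for Arntl (edgeR quasi-likelihood, Benjamini-Hochberg adjusted p = 0.0014), -2.51 ± 0.40 for Dbp, -2.16 ± 0.45 for Per2, -2.26 ± 0.29 for Per3 and -1.29 ± 0.16 for Nr1d2. For the Arntl arm the median change was 0.74 in NOR and 0.22 in BALB/c, and the strain difference passed for 1 of its 6 members. For the other arm the medians were -1.11 and 0.07, and it passed for 7 of 11. In the plot of clock genes, BALB/c 16-week library 1 had the highest Arntl and the lowest Dbp of its group. The hour at which glands were collected is not given in the sources used here, so age and time of day cannot be told apart for these genes.

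**Figure D3:**
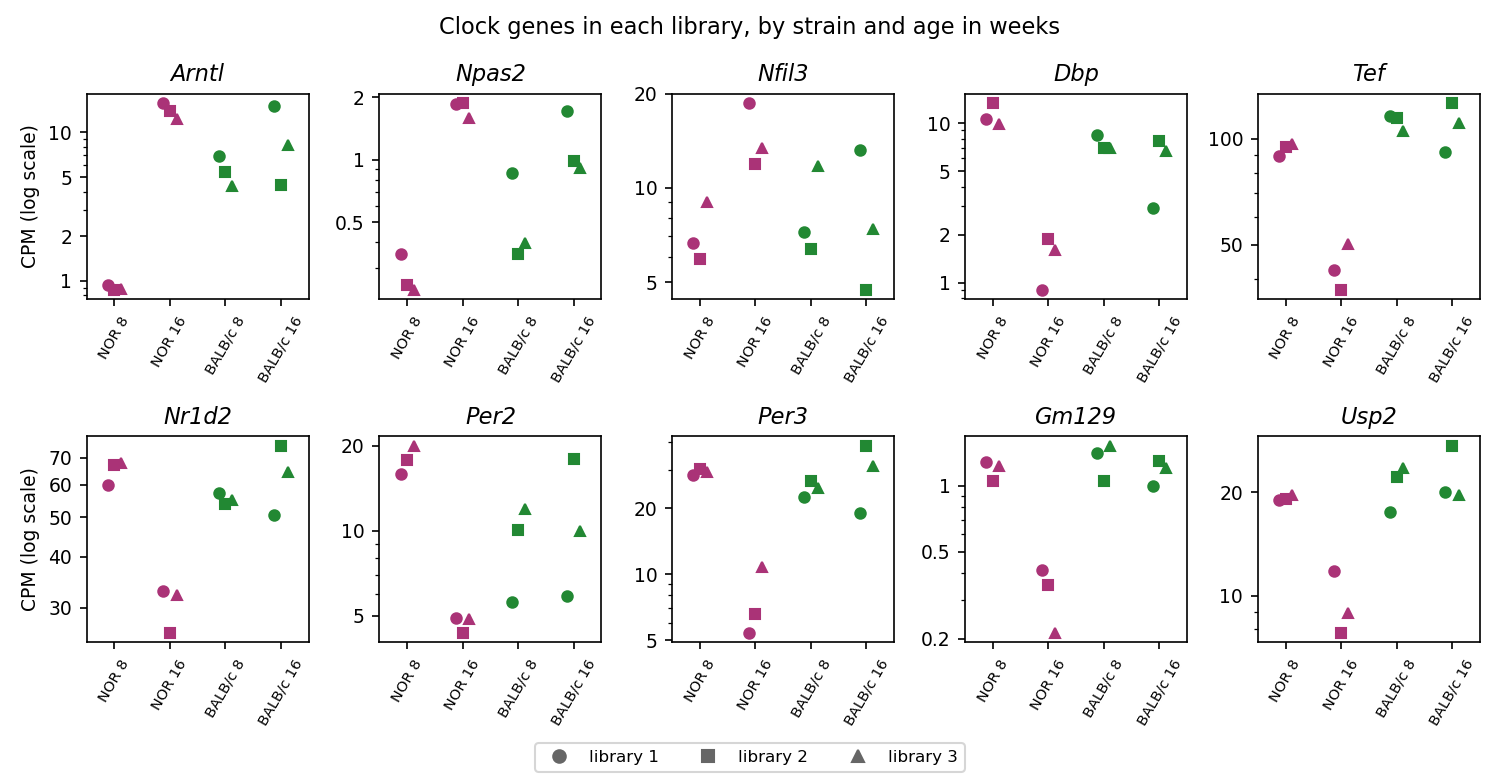
Levels of clock genes (CPM, log scale) in the 3 libraries of each strain and age, with marker shapes for the library number. In NOR, Arntl lay between 0.868 and 0.938 CPM at 8 weeks and between 12.3 and 15.8 CPM at 16 weeks, while Dbp lay between 9.81 and 13.4 CPM and then between 0.897 and 1.88 CPM.

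Upstream windows were read for the clock genes, since many of them passed and are known targets of factors that bind short motifs. Of 17 members, 15 had windows in RefSeq (build GRCm38.p6), 20 windows in all, each of the 250 bases before a transcript's start; Per2 was among those without. The motifs searched on both strands were CACGTG, the E-box, which reads the same on both strands, TTATGTAA (TTACATAA on the other strand), a D-box, and TAGGTCA, read as TGACCTA on the opposite strand, a site of REV-ERB receptors. Among 32851 windows of all genes, these were in 6.02%, 0.819% and 2.23%. CACGTG was in 6 windows of 5 members: Gm129, Tef, Per1, Cry1 and Bhlhe41. TTATGTAA was in Per3 and TAGGTCA, on the other strand, in Nfil3. Below are windows of Gm129 (chr3:95882229-95882478, minus strand), with CACGTG starting 116, 58 and 44 bases before the start, of Tef (chr15:81802423-81802672, plus strand), with it 127 bases before, of Per3 (chr4:151044666-151044915, minus strand), with D-boxes 205 and 158 bases before, and of Nfil3 (chr13:52981040-52981289, minus strand), with the receptor site 12 bases before. They are examples, written 5' to 3' with the motif in capitals, and the windows of Per1, Cry1, Bhlhe41 and a second one of Tef that hold CACGTG are not shown. A match is a run of letters and no measure of binding.
Gm129: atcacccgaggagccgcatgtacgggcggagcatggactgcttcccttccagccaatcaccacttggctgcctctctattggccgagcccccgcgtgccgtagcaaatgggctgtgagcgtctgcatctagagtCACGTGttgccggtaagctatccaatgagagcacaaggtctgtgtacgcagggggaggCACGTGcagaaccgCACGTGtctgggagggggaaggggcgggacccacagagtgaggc
Tef: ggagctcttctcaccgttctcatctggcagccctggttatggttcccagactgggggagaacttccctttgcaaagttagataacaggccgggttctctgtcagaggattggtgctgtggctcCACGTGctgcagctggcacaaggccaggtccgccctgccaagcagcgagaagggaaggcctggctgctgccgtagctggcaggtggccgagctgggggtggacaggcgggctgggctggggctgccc
Per3: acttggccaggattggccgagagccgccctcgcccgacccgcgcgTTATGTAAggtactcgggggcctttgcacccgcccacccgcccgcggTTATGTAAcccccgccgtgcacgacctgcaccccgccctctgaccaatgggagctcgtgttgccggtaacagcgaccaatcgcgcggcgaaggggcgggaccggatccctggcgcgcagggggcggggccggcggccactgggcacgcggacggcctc
Nfil3: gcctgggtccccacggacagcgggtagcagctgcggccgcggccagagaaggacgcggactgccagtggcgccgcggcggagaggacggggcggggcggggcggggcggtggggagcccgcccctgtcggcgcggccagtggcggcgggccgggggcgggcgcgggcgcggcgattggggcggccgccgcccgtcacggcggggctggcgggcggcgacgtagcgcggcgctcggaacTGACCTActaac

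Immediate early genes, which respond within minutes to stimuli that include tissue handling, were tested as a list of 19. In NOR 8 rose and 3 fell, against 18.5% of all genes in each direction, with a median of 0.43, against 0.63 in BALB/c. With total counts 10 rose and the 3 falls did not pass, where 3979 of all genes rose and 644 fell. By DESeq2 7 of the list rose and 1 fell. Without 8-week library 3 or 16-week library 2, 5 rose, and at most 1 fell in each omission but that of 8-week library 3. Klf2, a factor of quiescent lymphocytes and endothelium, stood at 2.64, 1.55 and 1.82 CPM at 8 weeks and 6.63, 15.02 and 8.08 CPM at 16 weeks and rose by 2.33 ± 0.30, without overlap, against 0.13 ± 0.33 in BALB/c, a difference of 2.20 ± 0.45. Zfp36 and Btg2 rose by 0.94 ± 0.13 and 0.81 ± 0.15, and Egr2, at 0.704, 0.31 and 0.353 CPM at 8 weeks and 1.24, 3.49 and 1.91 CPM at 16 weeks, by 2.31 ± 0.51. Egr1 and Egr3 rose by 1.35 ± 0.48 and 3.13 ± 0.89. Neither passed without 8-week library 3 (1.06 and 2.58) or 16-week library 2 (1.11 and 2.74), nor Egr1 without 8-week library 2 (1.40) or 16-week library 3 (1.29), and Egr3 was 4.37 without 8-week library 1. Jun was at 28.1, 23.8 and 21.7 CPM at 8 weeks and 16.8, 16.4 and 17.1 CPM at 16 weeks and fell, at -0.55 ± 0.18, but in BALB/c at 5.82, 7.13 and 11.5 CPM at 8 weeks and 17.3, 14.4 and 19.1 CPM at 16 weeks, where the change was 1.04 ± 0.20, a difference of -1.59 ± 0.27. That fall in NOR failed the test in all omissions except that of 8-week library 3, at values between -0.64 and -0.40. For Atf3 the change was -0.19 ± 0.20 in NOR and 1.28 ± 0.21 in BALB/c, a difference of -1.47 ± 0.29.

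The inflammatory chemokines Ccl2 and Ccl7 likewise changed by 4.17 ± 0.72 and 3.25 ± 0.61 in BALB/c, with Ccl2 at 0.0786, 0.14 and 0.169 CPM at 8 weeks and 0.998, 5.25 and 1.73 CPM at 16 weeks there, where each 16-week pool lay above those of 8 weeks. Their changes with age differed between the strains by -3.96 ± 0.94 (-3.06 without BALB/c 16-week library 2) and -3.76 ± 0.79.

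Endothelial markers summed to 24.6, 21.9 and 23.04 CPM at 8 weeks and 33.7, 56.003 and 44.4 CPM at 16 weeks, a 1.93-fold rise, led by Pecam1 (CD31), which leukocytes and platelets also carry, with none at 0. Pecam1 was at 12.2, 8.68 and 9.52 CPM at 8 weeks and 20.4, 39.02 and 29.1 CPM at 16 weeks, without overlap, and rose by 1.55 ± 0.20, and the junctional cadherin Cdh5 by 0.75 ± 0.17. Kdr and Emcn, more restricted to endothelium, did not pass, at -0.04 ± 0.15 and 0.13 ± 0.22. Fibroblast markers summed to 219, 222 and 195 CPM at 8 weeks and 209, 237 and 226 CPM at 16 weeks, led by Dcn, with none at 0. Of these 4, Pdgfra rose by 0.43 ± 0.13, and was short of the test without 8-week library 2 (0.39) or 3 (0.40) or 16-week library 2 (0.33), while the collagen Col1a1 stood at 45.7, 41.8 and 31.9 CPM at 8 weeks and 35.5, 42.8 and 41.1 CPM at 16 weeks, overlapping, with a log2 fold change of 0.00 ± 0.18.

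In collagen and matrix remodelling, 5 of 18 genes rose, against 18.5% of all genes, with a median of 0.44. The stromelysin Mmp3 stood at 1.70, 2.11 and 1.47 CPM at 8 weeks and 3.66, 6.12 and 4.47 CPM at 16 weeks and tenascin C (Tnc), a matrix protein of inflamed tissue, at 0.176, 0.248 and 0.0588 CPM at 8 weeks and 0.897, 2.90 and 2.23 CPM at 16 weeks, all higher at 16 weeks. These rose by 1.46 ± 0.31 and 3.62 ± 0.93, fibronectin (Fn1) by 0.71 ± 0.17, Col6a1 by 0.49 ± 0.13 and the membrane protease Mmp14 by 1.10 ± 0.17, with Mmp14 at 0.97 and 0.98 and under the fold threshold without 8-week library 3 or 16-week library 2. The main fibrillar collagens Col1a1, Col1a2 and Col3a1 did not pass. Duct and myoepithelial markers summed to 133, 137 and 113 CPM at 8 weeks and 105, 127 and 119 CPM at 16 weeks, led by Acta2. Of the 5 tested, Krt7 passed, at -0.42 ± 0.14, in a call that ended with total counts and in 4 of the 6 omissions of a library (values from -0.52 to -0.26), all but those of 8-week library 3, where 2 of 6 tested passed, and 16-week library 1. The basal keratin Krt5 was at 22.8, 24.3 and 24.2 CPM at 8 weeks and 18.3, 27.8 and 28.6 CPM at 16 weeks, and its partner Krt14 at 17.1, 18.4 and 15.5 CPM at 8 weeks and 18.3, 20.7 and 18.3 CPM at 16 weeks, with overlapping pools for both.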

How the data were processed

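The deposited table held counts per gene for whole LGs, and by the labels and the study's methods the authors had demultiplexed reads with bcl2fastq, checked them with FastQC, used HISAT2 for alignment to mm10 and featureCounts 1.6.2 for counts per gene symbol. The kit was stranded and the counting was taken as unstranded, so overlapping antisense genes cannot be told apart. Symbols are those of the table, with current names in brackets, and 51 of its 23337 genes lay on more than 1 chromosome. Genes passing edgeR's filterByExpr (minimum count 10, total 15), 13376 in all, were tested in edgeR 4.0.16 (quasi-likelihood F-test, TMM factors, 1 mean for each of the 6 groups of 3, R 4.3.3, limma 3.58.1) with Benjamini-Hochberg adjustment for NOR 16 against 8 weeks, the same in BALB/c, and their difference, at adjusted p of at most 0.05 and, for DEGs, a log2 fold change at or past 1 in size. The fit's common dispersion of 0.0191 equals a coefficient of variation of 13.8%. The 3-week libraries entered the fit and no comparison. Named genes were the 12 rising and 12 falling DEGs with the smallest p, the 8 genes in each direction with the highest CPM per kb, the 5 in each direction with the smallest p in the difference between strains, and members of 45 lists of markers and pathways. Members and lists were chosen with earlier results of these data known. Values after ± are standard errors, the absolute log2 fold change over the root of F. The alternatives tried were DESeq2 1.42.0, 3 other scalings (DESeq2's size factors, TMM with the 20 most abundant genes removed, and total counts), 2 other low-count filters, a fit of just the groups compared, a block for replicate number, omission of each library, no fold threshold and glmTreat. Leaving out library 1 of both NOR ages was added after the data were seen. Python 3.11.15 with pandas 2.3.3, scipy 1.17.1, numpy 2.4.6 and matplotlib 3.10.9 served for tables and plots, and the fit was tested on simulated counts.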

Additional observations from a re-analysis of the deposited data

Results flagged for a closer look

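A difference between the strains marked these results: in the test of the change from 8 to 16 weeks, NOR minus BALB/c, 381 genes passed with an absolute log2 difference of at least 1. Of the genes named in this report, 28 had the more positive change in NOR: Bank1 (3.95), Rhoh (3.67), Ccr6 (3.37), Arntl (3.19), Gm9897 (3.05), Pla2g2d (2.83), Cd37 (2.72), Itgb7 (2.42), Pou2f2 (2.36), Il16 (2.35), S1pr1 (2.23), Klf2 (2.20), Ciita (2.04), Cd55 (2.00), Dennd1c (1.91), Cxcl13 (1.90), H2-Eb1 (1.71), H2-Ab1 (1.66), H2-Aa (1.66), Cd74 (1.63), Csk (1.57), Syk (1.53), Pecam1 (1.53), Gpnmb (1.48), Fyn (1.43), Arhgef1 (1.30), Ezr (1.13) and Irf8 (1.06). Another 20 had the more negative change in NOR: Thbs1 (-4.27), Ccl2 (-3.96), Ccl7 (-3.76), Egr1 (-2.58), Dbp (-2.51), Cyp2a5 (-2.27), Per3 (-2.26), Cxcl1 (-2.18), Per2 (-2.16), Rab26 (-1.79), Jun (-1.59), Gm129 (-1.58), Atf3 (-1.47), C5ar1 (-1.47), Dhtkd1 (-1.45), Nr1d2 (-1.29), Dsc2 (-1.20), Gyltl1b (-1.19), Usp2 (-1.10) and Tef (-1.09). With each of the 12 libraries of these 4 groups left out in turn, some calls ended. The number of omissions that ended the call, and the lowest and highest log2 difference, were Bank1 (6; 3.55 to 5.19), Ccr6 (10; 2.89 to 3.80), Cd37 (6; 2.27 to 3.18), Pou2f2 (3; 2.10 to 2.70), Ciita (9; 1.65 to 2.44), Cxcl13 (8; 1.499 to 2.48), Gpnmb (5; 1.31 to 1.71), Irf8 (3; 0.90 to 1.29), Tef (2; -1.21 to -0.94), Usp2 (3; -1.22 to -0.89), C5ar1 (9; -1.77 to -1.17), Gm129 (9; -1.70 to -1.38), Cxcl1 (7; -2.52 to -1.53) and Egr1 (7; -3.02 to -2.00). Gm9897 was not followed through the omissions. The calls of the others held in each, with Itgb7 at 3.22 without BALB/c 16-week library 3 and Ccl2 at -3.06 without BALB/c 16-week library 2. DESeq2 did not call the strain difference of Ciita, Cxcl13, C5ar1 and Gm129. With total counts the calls of Bank1, Ccr6, Ciita, Cxcl13, C5ar1, Gm129 and Egr1 ended. In a fit of the compared groups alone, those of Bank1, Ccr6, Cd37, Ciita, Cxcl13, C5ar1 and Egr1 ended. For the clock genes among the genes flagged here, the hour of collection and age cannot be told apart. For Jun, Atf3, Egr1, Thbs1, Ccl2 and Ccl7, which respond to handling and to injury, the time from death to preservation of the tissue was not available and was not tested. For lymphocyte genes, levels near the floor in BALB/c left its change uncertain.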

How the results depend on the processing

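The 1292 DEGs of NOR numbered 1232 with DESeq2 (1144 of them shared), 1331 with DESeq2's size factors, 1314 with TMM factors without the 20 most abundant genes, 1740 with total counts, 1512 without a low-count filter, 979 with a mean CPM of at least 1 and 1190 in a fit of the compared groups alone. They numbered from 819 to 1828 with a library left out, 4942 without the fold threshold and 416 with glmTreat, which tests against that threshold and so asks for more. The 59 DEGs of BALB/c became 35 with DESeq2, 131 with total counts, 236 without the fold threshold and 8 with glmTreat, and from 33 to 56 with a library left out. The 381 genes whose change differed between the strains became 214 with total counts, 1071 without the fold threshold, 2 with glmTreat, from 147 to 832 with a library left out and 998 without library 1 of both NOR ages. The cause was not tested. Total counts moved the median log2 fold change of all genes from -0.01 to 0.26 in NOR and from 0.03 to 0.23 in BALB/c. With replicate number as a block the counts were 1271, 54 and 334. The labels do not pair libraries across ages, and the correlation of deviations between libraries of the same number was -0.20, 0.30 and 0.43, with number 1 of 8 weeks closest to number 3 of 16 weeks. Of 171 named DEGs of NOR, each kept its direction in all alternatives; those that lost the call numbered 16 with DESeq2, 3 with its size factors, 9 with total counts, 2 without a filter, 1 of 152 with a mean CPM of at least 1, 8 of 170 in the fit of the compared groups, 1 with the block, and 3, 23 and 27 without 8-week library 1, 2 or 3, and 1, 40 (of 170) and 9 without 16-week library 1, 2 or 3. Among genes in the text, DESeq2 did not call Glycam1, Cd3e, Tbx21, Klrb1c, Klrd1, Ccl8, Il12b, Il18, Usp2 and Egr1. Of 121 named genes that passed the adjusted p alone, 12 lost the call with DESeq2, 36 with total counts, 46 in the fit of the compared groups, 19, 32 and 42 without 8-week library 1, 2 or 3, and 8, 62 and 33 without 16-week library 1, 2 or 3. Ltbr turned from -0.27 to 0.00 (0.000712) with total counts. With 3 pools a side and from 7322307 to 17719984 counts a library, genes under about 1 CPM were measured with few counts, which limits many chemokine, cytokine and germinal centre genes.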
